A study of Mus musculus with 2 samples.

Results

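The nuclei described here are glutamatergic nuclei of descending hindbrain neurons of mice in which no UMI (unique molecular identifier, a counted transcript) of any Hox gene of paralog groups 4 to 8 was found. They were chosen by their own counts. At least 75% of 3 or more transmitter UMIs had to come from the vesicular glutamate transporters Slc17a6, Slc17a7 and Slc17a8, with Gad1, Gad2, Slc32a1 and Slc6a5 making up the rest. A UMI in 3 or more of Prdm6, Spx, Crh, Svep1 and Asb4, or in 3 or more of Gm13912, C1ql2, Tacr3, Arsj and Ntsr1, removed a nucleus. The rule found 131 of 713 nuclei.

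All mice were of the TRAP2 strain, aged 8 to 12 weeks. TRAP2 mice carry an inducible Cre recombinase at the Fos locus, which can mark neurons active in a chosen time window when it is combined with a reporter, and the labels name no reporter allele. An adeno-associated virus taken up by axon ends and encoding a nuclear green fluorescent protein (AAV-retro-H2B-GFP) was placed in the lumbar cord of both groups, and hindbrain tissue from 5.2 to 7.3 mm behind bregma was taken. The first library came from mice under the treatment labelled SNI with brush, an abbreviation that the labels do not expand, and the second from mice given a hot water bath. Each library pooled the hindbrains of its treatment. There was 1 library per treatment and no untreated library was analysed here, so no test between the treatments was possible. Ratios between the libraries carry exact 95% intervals that cover counting error only, not the spread between animals, and compare these libraries rather than the treatments at large.

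Descending neurons of the brainstem run to the spinal cord and set posture, locomotion, autonomic output and the gain of sensory and pain signals there. Most excitatory ones use glutamate, loaded into vesicles by the transporter VGLUT2, the product of Slc17a6. Hox genes are expressed in nested domains along the hindbrain and cord: groups 1 to 3 reach the anterior rhombomeres, while groups 4 to 8 begin in the caudal hindbrain. At the depth of a single nucleus a transcript can also be missed, so a nucleus without Hox4-8 UMIs need not lie rostral to those domains.

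Of the SNI with brush nuclei, 35 of 288 met the rule, which is 12.2% (interval 8.61 to 16.5%). Of the hot water bath nuclei, 96 of 425 did, which is 22.6% (18.7 to 26.9%). Among glutamatergic nuclei of neither excluded class, the Hox4-8 negative ones made up 30.7% of 114 SNI with brush nuclei (22.4 to 40.0%) and 55.2% of 174 hot water bath nuclei (47.5 to 62.7%). The rest were Hox4-8 positive, 79 and 78 nuclei. The share moved with depth. Of the Hox4-8 positive nuclei, 30 of 79 in the SNI with brush library and 38 of 78 in the hot water bath library held only 1 Hox4-8 UMI. When every nucleus was thinned at random to 9000 UMIs, which left none out, 44 of those 79 and 32 of those 78 still held one. At that depth the Hox4-8 negative nuclei made up 70.8% of 48 remaining glutamatergic nuclei in the SNI with brush library (55.9 to 83.0%). In the hot water bath library they made up 80.4% of 56 (67.6 to 89.8%), and the intervals overlapped. Only 15 of those 34 SNI with brush nuclei and 28 of those 45 hot water bath nuclei had met the rule at full depth, so the thinned shares describe partly other nuclei.

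Depth within the chosen nuclei was high and similar. The SNI with brush nuclei held a median of 33545 UMIs (9494 to 136952) and 7465 genes, and the hot water bath nuclei a median of 36568.5 UMIs (12815 to 96057) and 7214 genes. Summed, they gave 1483957 and 3685743 UMIs. No cell barcode was shared between the libraries. Mitochondrial transcripts took a median of 0.162% of the UMIs of a nucleus in the SNI with brush library and 0.0617% in the hot water bath library, and 6 and 5 nuclei lay above 0.5%. Scrublet called 1 and 2 of the nuclei doublets, and they were kept.

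Few nuclei lay near the limit on the transmitter share, and more near the other limits. Only 3 nuclei in each library had a transmitter share between 75% and 80%, while 21 of 35 and 80 of 96 had 100%. Exactly 3 transmitter UMIs were held by 4 and 10 nuclei, and 2 and 11 nuclei that met the rest of the rule had 2, all of vesicular glutamate transporters. On the Prdm6 and Crh list, 5 and 21 Hox4-8 negative nuclei held UMIs of 2 genes, 1 short of exclusion, and 2 and 20 Hox4-8 free nuclei were excluded with exactly 3. The Hox4-8 negative nuclei numbered 35 and 96, and no interval was computed for these counts.

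The transporter counts that chose the nuclei were nearly all Slc17a6. A Slc17a6 UMI was present in 33 of 35 SNI with brush nuclei and in 95 of 96 hot water bath nuclei, at summed levels of 210 and 184 CPM (UMIs scaled to a total of 1000000). Slc17a7, which encodes VGLUT1, the transporter of cortical, cerebellar granule and some pontine neurons, was found in 7 of 35 SNI with brush nuclei (20%, interval 8.44 to 36.9%) and in 2 of 96 hot water bath nuclei (2.08%, 0.253 to 7.32%). At 9000 UMIs per nucleus these shares were 17.1% and 1.04%. In nuclei outside the glutamatergic classes a Slc17a7 UMI appeared in 6.79% of the SNI with brush nuclei and in 0.585% of the hot water bath nuclei, at median depths of 30624 and 34687 UMIs. The rule sorted nuclei by these transporters, so the contrast with nuclei it kept out is a description. Slc17a8, encoding VGLUT3, was found in 2 of 35 and 5 of 96 nuclei, and 26 of the 31 hot water bath UMIs lay in 1 nucleus. In the hot water bath library 1 nucleus held Slc17a8 and no Slc17a6. The transcription factor gene Creb5 had a UMI in 11 of 35 SNI with brush nuclei and 16 of 96 hot water bath nuclei, at 31.7 and 27.7 CPM, against 21 of 162 and 17 of 171 of the nuclei outside the glutamatergic classes. Of the markers that go with the label, Slc17a6 marked nearly every nucleus because the rule asked for it, whereas Slc17a7 and Creb5 each marked a minority. In Hox4-8 positive nuclei Slc17a7 was found in 29.1% and 6.41% and Creb5 in 34.2% and 10.3%.

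Markers of other cells were present and not equal between the libraries. The 4 choroid plexus markers summed to 232 CPM in the SNI with brush nuclei, more than Slc17a6, and to 14.1 CPM in the hot water bath nuclei, and 35 of 35 and 35 of 96 nuclei held a UMI of one. Ttr made up 341 of the 344 SNI with brush UMIs and 36 of the 52 hot water bath UMIs. Folr1 and Kl had 0 UMIs in the SNI with brush nuclei, and Clic6 was lower there (2.02 and 3.80 CPM). All 8 neuronal markers were detected, with Snap25 at 1068 CPM in the SNI with brush nuclei and 759 CPM in the hot water bath nuclei. Inhibitory transmitter genes, which the rule limited, summed to 16.8 and 4.88 CPM, and noradrenergic genes to 5.39 and 1.36 CPM. The 7 oligodendrocyte markers, none of them at 0 in the SNI with brush nuclei, summed to 132 and 70.3 CPM, and the 4 microglial markers to 78.2 and 80.3 CPM. Most of the microglial sums was P2ry12, at 65.4 and 67.3 CPM in 25 of 35 and 80 of 96 nuclei. Csf1r had 1 and 6 UMIs. The 6 liver markers summed to 55.3 CPM in the SNI with brush nuclei and 1.63 CPM in the hot water bath nuclei, and 4 and 0 nuclei held at least 3 liver UMIs. Serotonergic genes summed to 16.8 CPM in the SNI with brush nuclei and 87.1 CPM in the hot water bath nuclei, but 1 hot water bath nucleus held 206 of the 321 UMIs. That nucleus met the glutamatergic rule and carried 76 of the 82 Tph2 UMIs of its library.

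Regional transcription factors of the embryonic hindbrain and cord marked fractions of the nuclei. Shox2, a factor of excitatory premotor neurons, had a UMI in 15 of 35 SNI with brush nuclei and 32 of 96 hot water bath nuclei, at 17.5 and 15.7 CPM. The LIM homeobox gene Lhx4 had one in 7 and 21 nuclei, at 8.09 and 10.6 CPM. Barhl1, Barhl2, Lhx2 or Lhx9, factors of rhombic lip and dI1 descendants, had a UMI in 9 nuclei (25.7%) and 18 nuclei (18.8%). Lmx1b, a factor of dorsal dI5 excitatory neurons, of parabrachial neurons and of serotonergic neurons, was present in 7 nuclei (20%) and 16 nuclei (16.7%). For the rhombic lip set and for Lmx1b the intervals of the libraries overlapped.

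The nuclei were clustered on their own, with each gene centred within its library, and 10 subgroups resulted. The genes that lead a subgroup were used to form it, so they are given as description, and the subgroups carry numbers rather than cell type names. Shox2 was seen in 7 of 12, 4 of 7, 8 of 9 and 11 of 13 nuclei of subgroups 1, 2, 3 and 7, and in 7 of 24 and 10 of 19 nuclei of subgroups 5 and 9. The other subgroups had no Shox2 UMI. Subgroup 1 (12 nuclei) was led by Reln, the secreted guidance protein reelin, at 559 CPM, and had the highest level of Adcyap1, the PACAP precursor, at 82.4 CPM. Subgroup 2 (7 nuclei) was led by the glutamate receptor gene Grm5 and had Pnoc, the nociceptin precursor, at 58.4 CPM, while no other subgroup exceeded 4.46 CPM. Subgroup 3 (9 nuclei) was led by Sema3a, a repulsive guidance cue, and had the highest Shox2 level (42.9 CPM). Subgroup 7 (13 nuclei) was led by Nell1, Ptprz1 and Ebf3. The serotonin receptor gene Htr2c was abundant in subgroups 1 and 2, at 1787 and 2134 CPM, and reached 349 CPM in subgroup 3 and 887 CPM in subgroup 7.

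Subgroup 4 (13 nuclei) was the Creb5 subgroup. It held 63.8% of all Creb5 UMIs, at 253 CPM, and was led further by Mctp2, Met, Kcnt2 and Nr4a2. It combined the highest levels of the mu and kappa opioid receptor genes, Oprm1 at 154 CPM and Oprk1 at 50.5 CPM, with Htr2c at 2179 CPM and the alpha-1A adrenergic receptor gene Adra1a at 199.5 CPM. Reln was higher there than in subgroup 1, at 694 CPM. None of its nuclei held a Lhx3, Lhx4, Shox2 or Lmx1b UMI. Of its 13 nuclei, 9 held UMIs of 2 genes of the Prdm6 and Crh list and all held at least 1. Svep1 was seen in 8 and Crh in 6, so the subgroup bordered on that class.

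Subgroup 6 (18 nuclei) bordered on the same class by another gene. Prdm6, a transcriptional repressor gene, had a UMI in 17 of 18 nuclei and led the subgroup at 149 CPM, followed by Bche, Shroom4, Pcsk5 and Pde11a. Lhx2, Lhx9, Barhl1 or Barhl2 was seen in 11 of the 18, and the subgroup held 45.9% of the Lhx9 UMIs. Its Htr2c level was 95.2 CPM.

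Subgroup 8 (10 nuclei) was the Lmx1b subgroup. All 10 nuclei carried Lmx1b, at 171 CPM and 62.6% of all Lmx1b UMIs, and the leading genes were Cartpt, a neuropeptide precursor (212 CPM), Crhbp, which encodes a binding protein for corticotropin-releasing hormone (130 CPM), Tspan18, Tfap2b and Adarb2. The dI5 and sensory factors Tlx3 and Pou4f1 were also highest there, at 12.7 and 22.9 CPM. Tacr1, the receptor for substance P, stood at 178 CPM, and 52.2% of its UMIs came from this subgroup. Npy1r (38.2 CPM) and Penk, the enkephalin precursor (68.8 CPM), were highest there too, while Htr2c was lowest at 63.7 CPM.

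Subgroup 5 (24 nuclei) was led by Nptx1, Dscaml1, Mef2c, Klhl1 and Plpp4 and was mixed in regional factors: 7 nuclei had a Shox2 UMI, 10 had Lmx1b and 5 a rhombic lip factor. It held 77.8% of the Foxp2 UMIs, 75.5% of those of Sst, the somatostatin precursor, and 64.1% of those of Spp1. Its nuclei were the shallowest, with a median of 26706 UMIs, and had the highest median mitochondrial share, 0.347%. Subgroup 9 (19 nuclei) was led by Col19a1, Col4a5 and Tox, with Lhx4 in 7 nuclei, and included the nucleus rich in Tph2. Subgroup 10 (6 nuclei) was the Slc17a7 subgroup. It held 81.6% of the Slc17a7 UMIs (137 CPM beside 48.7 CPM of Slc17a6) and 14.8% of the Creb5 UMIs, was led next by Tcf4, Arpp21 and Bcan, and had the highest Barhl1 (26.6 CPM), Pax6 (35.4 CPM) and Oprd1 (79.7 CPM, the delta opioid receptor gene).

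**Figure D1:**
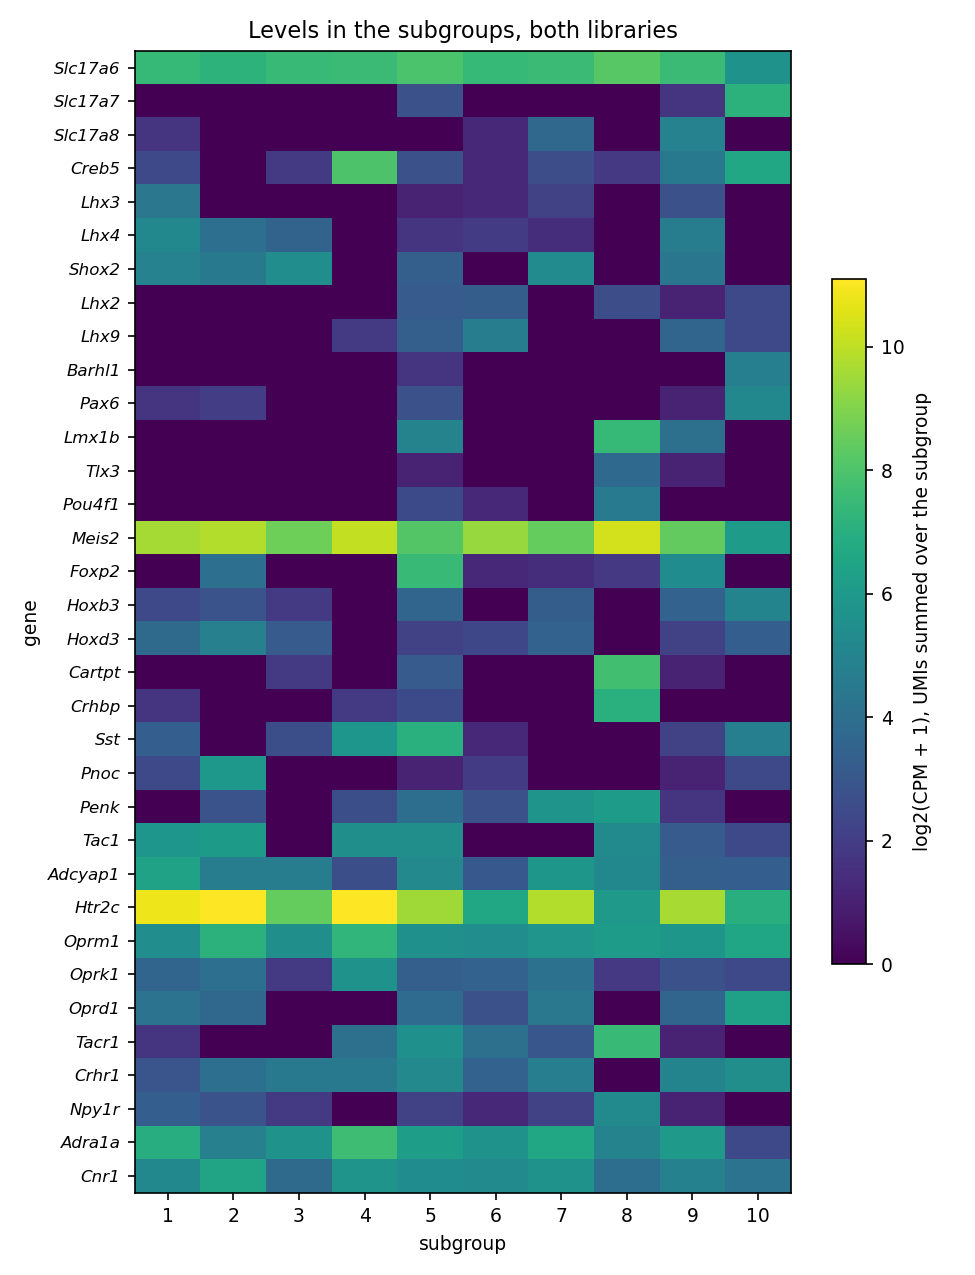
Levels of 34 genes (rows) in the 10 subgroups (columns), as log2 of summed CPM plus 1 over both libraries. Shox2 is brightest in subgroups 3 and 7, Lhx4 in subgroups 1 and 9, Creb5 is brightest in subgroup 4, Lmx1b, Cartpt, Crhbp and Tacr1 in subgroup 8, and Slc17a7 in subgroup 10.

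The libraries filled the subgroups unequally. Subgroup 5 held 40.0% of the SNI with brush nuclei (interval 23.9 to 57.9%) and 10.4% of the hot water bath nuclei (5.11 to 18.3%). Subgroup 10 held 14.3% (4.81 to 30.3%) and 1.04% (0.0264 to 5.67%), and subgroup 9 held 25.7% (12.5 to 43.3%) and 10.4% (5.11 to 18.3%). Subgroups 2, 3 and 8 held none of the 35 SNI with brush nuclei, and 7, 9 and 10 of the 96 hot water bath nuclei. Subgroups 4 and 6 held 1 SNI with brush nucleus each, and 12 and 17 hot water bath nuclei. Since some leading genes differ between the libraries, the clustering was repeated without the variable genes that were at least 2-fold apart, which left 1108 of 1487. The best matching subgroups then had the same library make-up for subgroups 3, 4, 8 and 10, and 28.6% and 10.4% for subgroup 9. The match of subgroup 5 shared only 12 of its 24 nuclei and held 20% and 11.5%, so that the size of subgroup 5 rested on those genes. The match of subgroup 6 kept 10 of its 18 nuclei, none from the SNI with brush library, and that of subgroup 7 kept 7 of 13. With 1 library per treatment a subgroup seen mainly in 1 library cannot be told apart from a property of that library.

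**Figure D2:**
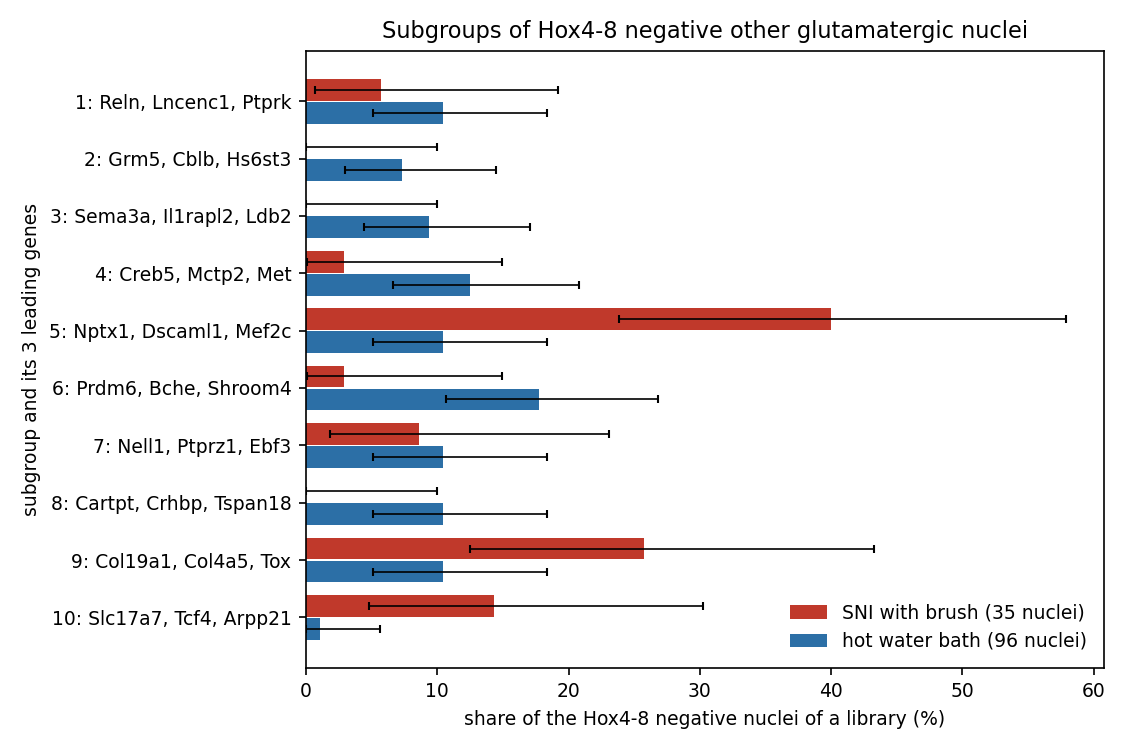
Share of each library's Hox4-8 negative nuclei (horizontal axis, percent) in each subgroup with its 3 leading genes (vertical axis). Bars are shares and lines exact 95% intervals for counting error; subgroup 5 is 40.0% of the SNI with brush nuclei and 10.4% of the hot water bath nuclei, and subgroup 8 is 0 and 10.4%.

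The comparison that could be tested was that of Hox4-8 negative with Hox4-8 positive glutamatergic nuclei, since both classes occur in each library. The libraries differ in treatment, so they are not replicates of a single condition. Hox4-8 negative nuclei had more Gabrg3, Myo3b and Pld5 and less Reln and Col25a1, whose calls held in at least 6 alternative settings each. The other named calls held in fewer. With nuclei of 3 or more liver UMIs left out, Reln, Col25a1 and Shroom4 were called again, and Gabrg3, Myo3b and Pld5 were not. A DESeq2 Wald test called Reln and Gabrg3 but not Myo3b, Pld5 or Col25a1. The settings reuse the same libraries, so they are no separate support. Counts were summed per class and library and tested with edgeR's quasi-likelihood test, with the library as a block, over 10493 genes that the rule did not use. At an adjusted p (Benjamini-Hochberg) under 0.05, 26 genes were higher in the Hox4-8 negative nuclei (0.248% of those tested) and 27 lower (0.257%), all 53 with the same direction in both libraries. The test with the block favours genes whose folds agree between the libraries, so this is no separate support. The median log2 fold over all genes was 0.00. The test rested on 4 sums, and the calls depended on the fit. With the block 665 genes had an unadjusted p under 0.05. Without it edgeR called 0, with 70 genes at an unadjusted p under 0.05. A DESeq2 Wald test with the block called 4 higher and 5 lower, and gave no adjusted p for 6 of the 26 and 10 of the 27.

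Reelin had the lowest adjusted p of the named genes. Reln stood at 66.7 CPM in Hox4-8 negative nuclei and 183 CPM in Hox4-8 positive nuclei of the SNI with brush library, and at 173 and 482 CPM in the hot water bath library. The log2 fold was -1.46 ± 0.13 (SE; edgeR quasi-likelihood test, adjusted p = 9.27e-09). This call held in 8 of 9 alternatives, all but the fit without the block. Reln lies on chromosome 5 from 21884454 to 22344702, minus strand (mm10, GENCODE vM21).

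Among genes that were higher in the Hox4-8 negative nuclei, Shroom4, an actin-binding regulator of cell shape on chromosome X (6399854 to 6637448), had the largest fold of those named. It stood at 20.9 CPM in negative and 4.87 CPM in positive nuclei of the SNI with brush library and at 30.9 and 6.74 CPM in the hot water bath library (log2 2.15 ± 0.30, edgeR adjusted p = 8.01e-05). Shroom4 also led subgroup 6, at 115 CPM in 16 of 18 nuclei, and its level in the excluded Prdm6 and Crh class was 44.2 and 43.1 CPM. The unconventional myosin gene Myo3b followed (22.9 against 4.87 CPM, and 29.8 against 10.7 CPM, log2 1.77). So did Otof, encoding the calcium sensor otoferlin (27.6 against 14.4 CPM, and 21.7 against 6.44 CPM, log2 1.32). Ion channel and receptor genes among the higher ones were Cacna1g, a T-type calcium channel (log2 1.03), Gabrg3, a GABA-A receptor subunit (764 against 427 CPM, and 658 against 374 CPM, log2 0.83), and Kcnj6, the GIRK2 potassium channel through which opioid and GABA-B receptors act (111 against 68.0 CPM, and 113 against 65.3 CPM, log2 0.75). Trhde, which encodes an enzyme that degrades thyrotropin-releasing hormone, and the phospholipase family gene Pld5 were higher by 1.02 and 0.87. D5Ertd615e, Mei4, Col8a1 and Sidt1 completed the 12 named. Of the alternative settings that tested them, the calls held in 5 of 8 for Shroom4, 6 of 8 for Myo3b, 2 of 8 for Otof, 7 of 9 for Gabrg3 and 6 of 9 for Pld5. Those of Trhde, Col8a1, Sidt1 and Kcnj6 held in 3 of 9, those of Cacna1g and Mei4 in 2 and that of D5Ertd615e in 1. In the excluded Prdm6 and Crh class Myo3b stood at 74.4 and 61.9 CPM and Trhde at 358 and 475 CPM. Like Mei4, Col8a1 and Sidt1, they were higher there than in Hox4-8 negative nuclei in both libraries. Otof was higher there only in the SNI with brush library and Gabrg3 only in the hot water bath library. D5Ertd615e, Cacna1g, Pld5 and Kcnj6 were higher there in neither. In the excluded C1ql2 and Tacr3 class (3 and 31 nuclei) D5Ertd615e (41.1 and 52.2 CPM) and Kcnj6 (118 and 125 CPM) exceeded Hox4-8 negative nuclei in both libraries. Otof and Gabrg3 did so only in the hot water bath library, and Trhde and Sidt1 only in the SNI with brush library. The rest of the 12 did so in neither.

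Among the lower genes, Hoxb3 stood at 7.41 CPM in negative and 34.1 CPM in positive nuclei of the SNI with brush library, and at 6.78 and 15.9 CPM in the hot water bath library (log2 -1.65 ± 0.30, edgeR adjusted p = 0.00272). It lies in the HoxB cluster, next to genes that the rule used. The 7 rostral Hox genes measured came to 24.3 CPM in negative and 75.8 CPM in positive nuclei for SNI with brush and to 20.1 and 43.8 CPM in the hot water bath library. Still, 16 of 35 and 40 of 96 Hox4-8 negative nuclei held a UMI of one of them. Cdh23, a cadherin of hair cell tip links (6.06 against 53.1 CPM, and 7.33 against 21.8 CPM, log2 -2.20), and Calcrl, the receptor subunit for CGRP and adrenomedullin (4.72 against 14.6 CPM, and 2.17 against 15.6 CPM, log2 -2.30), fell further. Col25a1, a transmembrane collagen, fell by 1.04 (41.1 against 83.7 CPM, and 89.3 against 185 CPM). Nefh, the heavy neurofilament chain of large axons, fell by 0.89 and Chrna7, the alpha-7 nicotinic receptor gene, by 0.99. Stard13, Atp10a, Fam163a and Neto1 completed the 12 lower genes, between -1.35 and -0.96. The calls held in 7 of 9 alternatives for Col25a1, 5 of 9 for Cdh23, 4 of 8 for Hoxb3, 4 of 6 for Calcrl and 3 of 4 for St18. Those of Fam163a and Neto1 held in 4 of 9, those of Stard13 and Nefh in 3 and those of Atp10a and Chrna7 in 2. In both excluded glutamatergic classes and both libraries Cdh23, Stard13, Atp10a and Fam163a were lower still than in Hox4-8 negative nuclei. Their low level was thus not particular to these nuclei. Reln and Chrna7 were at or above their Hox4-8 negative level in both classes and libraries, and the other named lower genes went both ways. The neuropeptide gene Cck, called but outside the rule for named genes and chosen here after its values were seen, stood at 7.41 against 53.6 CPM, and at 11.4 against 31.9 CPM. St18 had the largest fall of those named (log2 -2.86), from 9 UMIs in all Hox4-8 negative nuclei. It is a myelin-lineage gene as well as a neuronal one, and the oligodendrocyte list came to 132 CPM in negative and 213 CPM in positive nuclei for SNI with brush and to 70.3 and 79.4 CPM in the hot water bath library. Its part in the result was not tested.

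Liver transcripts moved with this comparison. The liver enzyme gene Cps1 was itself among the 27 lower genes, with 2.70 against 32.0 CPM in the SNI with brush library, and the liver list summed to 55.3 CPM in negative and 77.7 CPM in positive nuclei there. With the 4 negative and 5 positive nuclei that held 3 or more liver UMIs left out, edgeR called 2 genes higher and 2 lower, all among the 53. Shroom4, Reln and Col25a1 were called again.

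**Figure D3:**
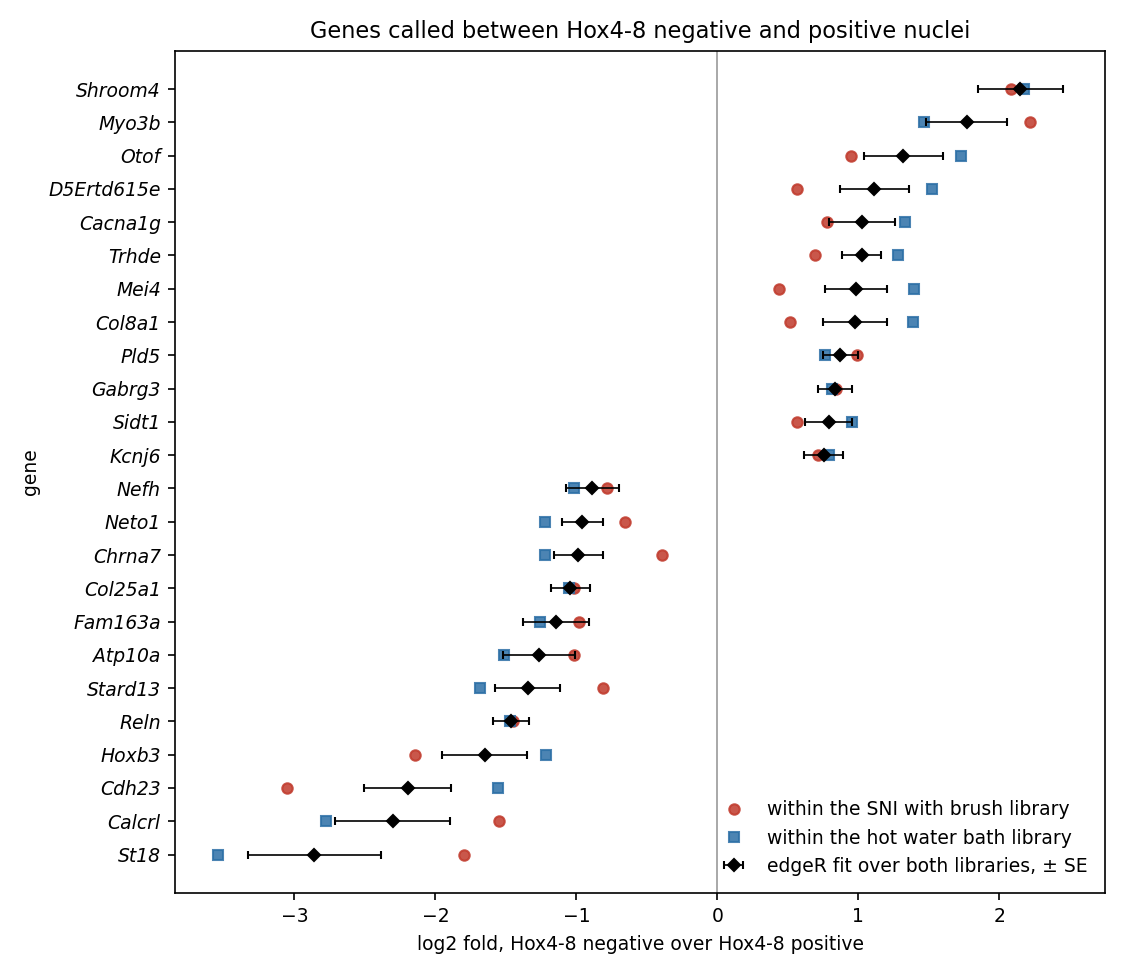
Log2 fold of Hox4-8 negative over Hox4-8 positive nuclei (horizontal axis) for the 12 named genes each way (vertical axis), within the SNI with brush library (circles), within the hot water bath library (squares) and in the edgeR fit with its SE (diamonds). Both libraries lie on the same side of 0 for each gene, which was a condition for naming, and for Reln, Col25a1 and Gabrg3 they nearly coincide.

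Few members of the gene lists were called, as were few genes over all (0.505% of the 10493 called and 6.34% at an unadjusted p under 0.05). Of 18 oxidative phosphorylation genes tested, edgeR and DESeq2 called 0 (median log2 -0.19), with 1 at an unadjusted p under 0.05. Of 12 large-axon genes 1 was lower (Nefh, list median -0.35), with 8 at an unadjusted p under 0.05. Of 13 pain-related receptor genes 1 was lower (Calcrl, median -0.03), and of 8 neuropeptide genes 1 was lower (Cck, median 0.02). Neither tool called any of the 6 cerebellar and vestibular, 4 parabrachial or 5 immediate early genes tested, of which 2, 2 and 1 had an unadjusted p under 0.05 in edgeR. Creb5 was 1.01 higher on the log2 scale with an adjusted p of 0.0501 (edgeR), just outside the threshold.

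Within the Hox4-8 negative nuclei, SNI with brush was then set against hot water bath. The SNI with brush nuclei had more transcript of large-axon and respiratory chain genes and of Sst, Foxp2 and Spp1, and less of Lmx1b-subgroup genes such as Tspan18, Crhbp, Cartpt and Tacr1. The sums of these 2 lists and the levels of Sst, Foxp2 and Spp1 were higher for SNI with brush in Hox4-8 positive nuclei too. Of 9819 genes with at least 50 UMIs, 677 (6.89%) had 2-fold or more UMIs per total in the SNI with brush nuclei, with an interval that excluded equality, and 260 (2.65%) were as far below. The median log2 ratio of all genes was 0.12. The split depended on the scaling: with median-of-ratios size factors, which moved the median of all genes to -0.07, the counts were 439 and 402. Short genes were shifted upward. With genes ranked by span into 5 equal bins, the shortest bin (348 to 13540 bp) had a median log2 ratio of 0.51 and the longest one of -0.11.

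Among genes within the naming limits (at least 50 UMIs, at least 5 SNI with brush or 10 hot water bath nuclei, and at most 25% of UMIs in 1 nucleus), the highest ratio was that of Ttr, the transthyretin gene of choroid plexus, at 230 CPM in SNI with brush nuclei and 9.77 CPM in hot water bath nuclei (log2 4.54, interval 4.06 to 5.09). It was found in 35 of 35 and 26 of 96 Hox4-8 negative nuclei and in 99.4% and 25.1% of the nuclei outside the glutamatergic classes, so it was not limited to glutamatergic nuclei. Pvalb, the calcium buffer parvalbumin, had 48.5 and 6.78 CPM (log2 2.82, 2.16 to 3.56) and was found in 28 of 35 and 19 of 96 nuclei. Scn4b, a sodium channel beta subunit of fast-firing neurons, had 32.3 and 4.88 CPM (log2 2.70). Mt3, a metallothionein, had 99.7 and 16.8 CPM (log2 2.56), and Tuba1b, an alpha-tubulin, 116 and 25.2 CPM (log2 2.20). Short genes of mitochondrial proteins, Tomm7, Atp5mpl and Romo1, lay between 2.17 and 2.25. Tle2, Slitrk2, Grcc10 and the non-coding RNA gene Snhg9 were also among the 12 highest within those limits. In Hox4-8 positive nuclei the same libraries gave 4.69 for Ttr, 2.27 for Pvalb and 2.91 for Mt3, so ratios of this size were present there too.

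The lowest ratios belonged to genes with few UMIs in the SNI with brush nuclei. Tspan18 had 1.35 CPM in SNI with brush nuclei and 23.9 CPM in hot water bath nuclei (log2 -3.83, interval -7.22 to -2.25), and Crhbp had 2.70 and 14.4 CPM (log2 -2.26). Both led subgroup 8, which had no SNI with brush nucleus. Hs3st2, a heparan sulfate sulfotransferase gene that was also among the leading genes of subgroup 8, had 15.5 and 106 CPM (log2 -2.75). Tacr1 had 7.41 and 33.4 CPM (log2 -2.11, -3.21 to -1.28). Htr1d, the serotonin receptor gene targeted by triptans, had 3.37 and 25.8 CPM (log2 -2.81), with a UMI in 3 of 35 and 43 of 96 nuclei. Stac, an adaptor protein of calcium channels, had 2.02 and 17.6 CPM (log2 -2.91), and Lama3, a laminin chain, 9.43 and 60.2 CPM (log2 -2.63). Gnasas1, Rph3al, Gk5, Catspere1 and Tex47 made up the rest. Gnasas1 and Snhg9 are annotated as antisense genes and Catspere1 as a pseudogene, so their reads may be shared with other genes.

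To see how far subgroup make-up went with these ratios, they were recomputed in the subgroups with at least 5 nuclei of each library, subgroups 5 and 9, with 23 SNI with brush and 20 hot water bath nuclei. Ratios that kept most of their size were Ttr (5.83), Scn4b (2.41), Spp1 (4.34), Sst (3.45), Lama3 (-3.52) and Tacr1 (-2.06). Pvalb was smaller (1.89). Tspan18 came to -0.72 with an interval that included equality, and Crhbp and Cartpt turned to 2.93 and 3.85, values set by the added 0.5 UMI because the hot water bath nuclei there held none.

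**Figure D4:**
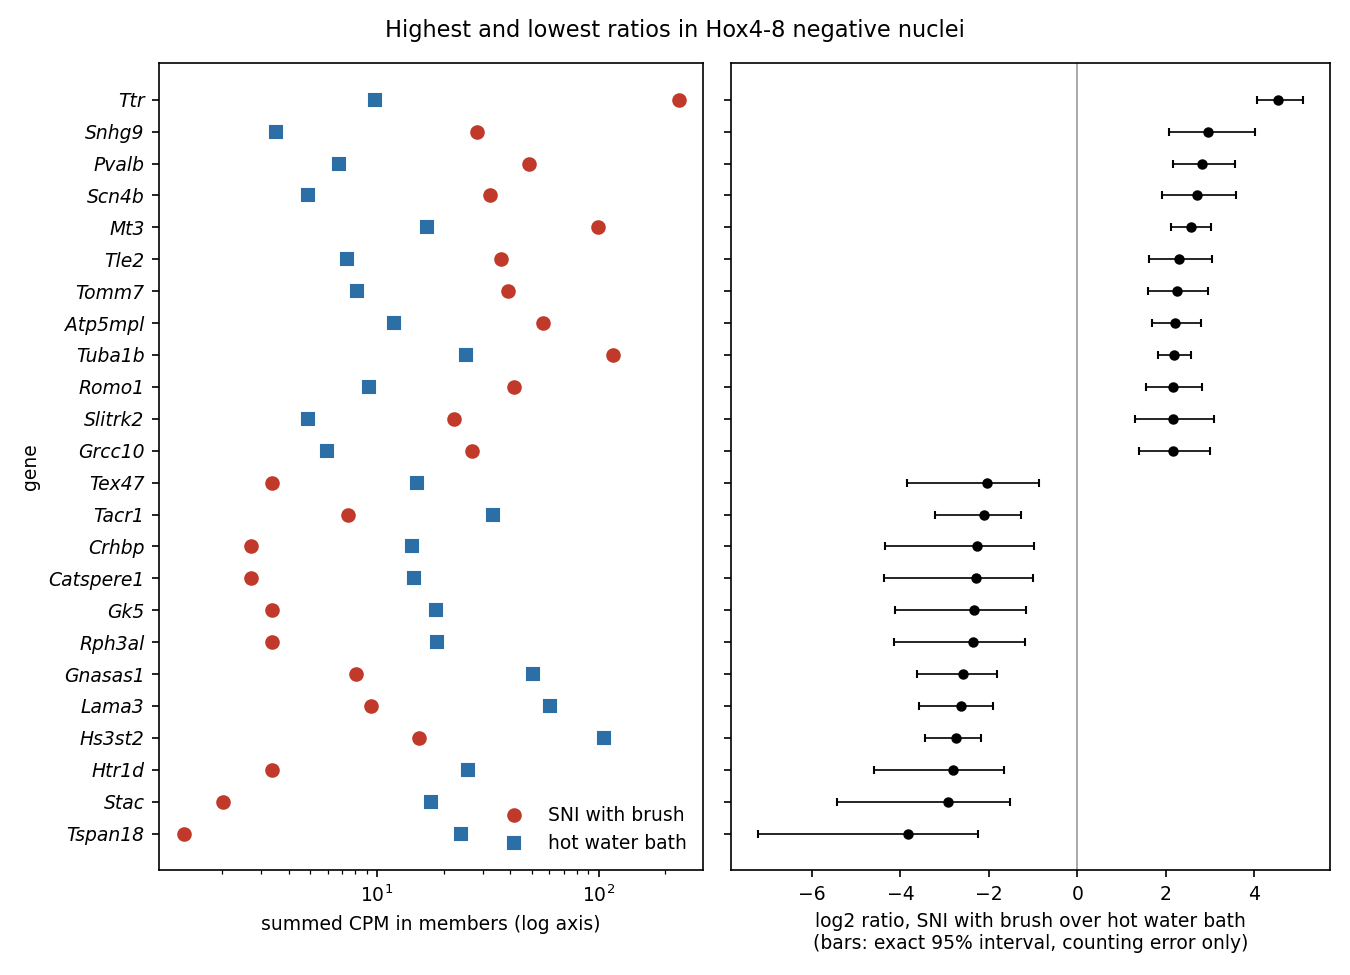
Summed CPM (left, log axis) of the 12 highest and 12 lowest genes within the naming limits (vertical axis) in SNI with brush and hot water bath Hox4-8 negative nuclei, and their log2 ratio (right) with its exact 95% interval for counting error. Ttr lies highest at 4.54 and Tspan18 lowest at -3.83, with wide intervals at the low end where the SNI with brush nuclei held few UMIs.

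Gene lists were read against the 12714 genes with at least 20 UMIs, of which 8.82% lay 2-fold or more above equality in the SNI with brush nuclei and 3.03% as far below, and the median log2 ratio was 0.14. All 18 oxidative phosphorylation genes lay above 0. Of these, 12 were past 2-fold and the list median was 1.35. Uqcrq, of complex III, had 86.9 and 19.5 CPM (log2 2.15), and Ndufa5, of complex I, 72.8 and 16.8 CPM (log2 2.11). All genes of the list but Sdhb (17991 bp) and Ndufs4 (100464 bp) have spans within the shortest bin, which was shifted upward over all genes. The mitochondrial share of UMIs was higher in the SNI with brush nuclei as well. The part of gene span and of the mitochondrial share in the result was not tested. Among nuclei with at most 0.5% mitochondrial UMIs, and within subgroups 5 and 9 (median 1.02), the list kept its direction. In Hox4-8 positive nuclei the list summed to 2468 CPM in the SNI with brush library and 882 CPM in the hot water bath library, beside 1938 and 868 CPM in negative nuclei.

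The 12 large-axon genes also all lay above 0, and 7 were past 2-fold (median 1.06). Spp1, osteopontin, a marker of large projection neurons, had 75.5 CPM in SNI with brush nuclei, in 13 of 35, and 5.16 CPM in hot water bath nuclei, in 11 of 96 (log2 3.84, interval 3.16 to 4.66). A single nucleus held 55 of its 112 SNI with brush UMIs. In Hox4-8 positive nuclei the list summed to 1577 and 781 CPM, beside 1290 and 648 CPM in negative nuclei, so the higher sums in the SNI with brush library were present in positive nuclei too. Vamp1, a synaptic vesicle protein of fast synapses, had 77.5 and 22.2 CPM (log2 1.80). Of 5 calcium-binding genes 3 were past 2-fold upward (median 1.15, and 0.55 within subgroups 5 and 9), among them Pcp4 with 129 and 58.1 CPM, while Necab1 lay at -0.72. Pcp4 was 0.35 within subgroups 5 and 9, with an interval that included equality.

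Immediate early genes are transcribed soon after neuronal activity. Of 11 such genes, 5 were past 2-fold upward in the SNI with brush nuclei and 0 downward (median 1.00), and the named ones rested on few UMIs or few nuclei. Fos had 15 UMIs in each library, in 7 of 35 and 11 of 96 nuclei, at 10.1 and 4.07 CPM (log2 1.31, interval 0.18 to 2.45), and 9 of the SNI with brush UMIs lay in 1 nucleus. Dusp1 had 15 and 8 UMIs, in 11 of 35 and 8 of 96 nuclei (log2 2.18, interval 0.89 to 3.66). At most 4 of its SNI with brush UMIs lay in 1 nucleus. Egr1 had 24 UMIs, 16 of them in 1 nucleus, and 17 UMIs. Nr4a2 had 59.3 and 20.6 CPM (log2 1.52), and 44 of the 88 SNI with brush UMIs lay in 1 nucleus. Taken as means of single nuclei, so that no nucleus counts for more, the list median came to 0.36, Nr4a2 to 0.36 and Dusp1 to 2.59. Within subgroups 5 and 9 the list median was 0.12, while Dusp1 came to 1.35 and Nr4a2 to 3.90. In Hox4-8 positive nuclei the list summed to 156 CPM for SNI with brush and 213 CPM for hot water bath. In negative nuclei it summed to 319 and 212 CPM, but 1 SNI with brush nucleus held 141 of the 473 UMIs of that library. The median per negative nucleus was 8 UMIs of the list for SNI with brush and 7 for hot water bath.

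Neuropeptide genes went both ways. Of 9 with at least 20 UMIs, 3 were past 2-fold upward and 3 downward (median -0.57). Sst had 82.9 CPM in 15 of 35 SNI with brush nuclei and 7.60 CPM in 14 of 96 hot water bath nuclei (log2 3.43, interval 2.85 to 4.10). A single nucleus held 35 of its 123 SNI with brush UMIs. In Hox4-8 positive nuclei Sst had 116 and 6.44 CPM (log2 4.14). Tac1, the substance P precursor, had 40.4 and 17.4 CPM (log2 1.22). Cartpt had 5.39 and 22.8 CPM (log2 -2.00), and Pnoc 1.35 and 6.51 CPM (log2 -1.98). Cartpt and Pnoc are the peptides that marked subgroups 8 and 2, neither of which had an SNI with brush nucleus. The median turned to 0.52 when genes with 5 or more UMIs were counted and to 1.30 within subgroups 5 and 9.

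Of 14 receptor genes that take part in pain control, 3 were higher and 2 lower (median -0.11). Crhr1, the type 1 receptor for corticotropin-releasing hormone, had 40.4 and 14.9 CPM (log2 1.44), and Cckbr, the cholecystokinin B receptor, 10.8 and 1.63 CPM (log2 2.66). Npy1r had 1.35 and 7.33 CPM (log2 -2.15), beside Tacr1 above. Most opioid and cannabinoid receptor genes were less far apart: Oprm1 had 52.6 and 70.5 CPM and was found in 25 of 35 and 69 of 96 nuclei, Oprk1 had 11.5 and 12.2 CPM, and Cnr1 had 27.6 and 42.3 CPM. Oprd1 had 18.9 and 10.9 CPM (log2 0.81, interval 0.05 to 1.53), in 12 of 35 and 18 of 96 nuclei. Htr2c was the most abundant receptor transcript of the list by UMI count in both libraries, with 588 and 961 CPM.

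Foxp2, which marks a part of the parabrachial and Koelliker-Fuse neurons and also V1 interneurons, had 128 and 2.17 CPM (log2 5.80, interval 4.87 to 7.11). It rested on 6 SNI with brush nuclei, 1 of which held 77 of the 190 UMIs, and on 5 hot water bath nuclei. In Hox4-8 positive nuclei Foxp2 had 47.1 and 3.98 CPM (log2 3.51). The list of 5 parabrachial genes had a median of 0.26. Meis2 was past 2-fold downward, with 320 and 669 CPM (log2 -1.06), and was the 1 gene of the 6 cerebellar and vestibular genes past that size. Zfhx3 and Zfhx4 were higher by 0.76 and 0.83, but Zfhx3 came to -0.14 within subgroups 5 and 9. Axon injury genes, 6 of them, had a median of 0.43, with Csrp1 and Stmn4 past 2-fold and Gap43 at 185 and 234 CPM. Atf3, the classic marker of axotomised neurons, had 8 UMIs in 1 SNI with brush nucleus and none in the hot water bath nuclei.

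Of 5 oligodendrocyte genes 2 were past 2-fold upward in the SNI with brush nuclei (median 0.91), led by Mobp with 16.2 and 4.07 CPM. The liver gene Alb had 27 UMIs in 7 SNI with brush nuclei and 0 UMIs in the hot water bath nuclei. Tph2, Slc6a4, Ddc and Slc18a2 were lower in the SNI with brush nuclei (median of the list -3.09), and the single hot water bath nucleus described above carried most of the Tph2 and Slc6a4 UMIs.

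**Figure D5:**
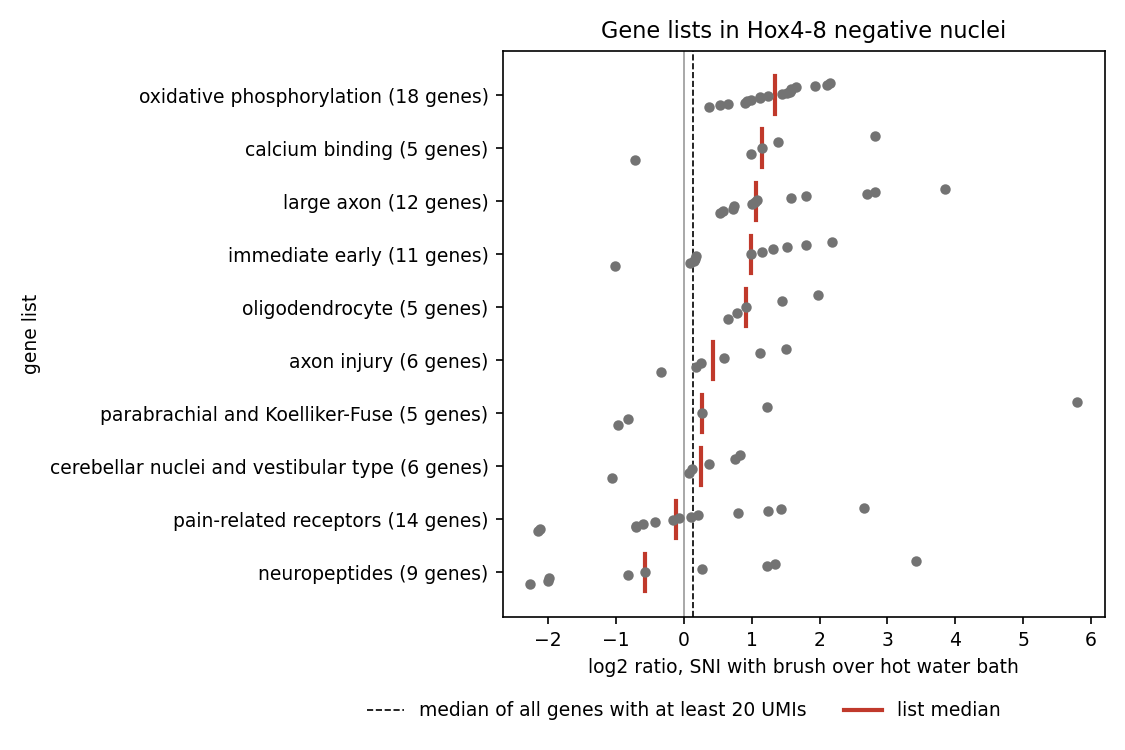
Log2 ratio between the libraries, SNI with brush on top (horizontal axis), in Hox4-8 negative nuclei for the genes of 10 lists (vertical axis). Points are genes with at least 20 UMIs, red bars list medians and the dashed line the median of all such genes, 0.14; all 18 oxidative phosphorylation genes and all 12 large-axon genes lie right of 0.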

How the data were processed

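Nuclei were isolated from pooled frozen hindbrains, sorted by fluorescence and made into libraries with the 10x Chromium 3' v3 kit, per the labels. The authors deposited raw UMI counts per gene and nucleus for 23912 genes. The submitters' processing notes name mm10, Cell Ranger 5.0 and Seurat. Of 850 and 723 listed barcodes, 288 SNI with brush and 425 hot water bath nuclei have counts (11298755 and 16344606 UMIs), and neither the filter that chose them nor the counting of introns or strand is stated in the labels. No further nucleus was removed.

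The members and the gene lists were chosen with earlier results of these data known, and the Hox4-8 rule uses the same counts. Levels are summed counts scaled to 1000000 UMIs (CPM). Ratios are log2 with 0.5 UMI added, and intervals are exact 95% intervals (Clopper-Pearson for shares, conditional binomial for ratios, scipy 1.17.1). They leave out the spread between animals. Hox4-8 negative and positive sums were tested with edgeR 4.0.16 (quasi-likelihood, TMM, library as a block, at least 100 UMIs, Benjamini-Hochberg), and DESeq2 1.42.0 (R 4.3.3) served as an alternative. The block was used because both classes come from the same pool in each library. The libraries are single pools of different treatments. With the block, p-values set the fold between the classes against its disagreement between these libraries. That disagreement cannot be told apart from a treatment difference, and the spread between animals is not measured.

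Genes were named as the 12 largest folds each way among calls with the same sign in both libraries, at least 10 nuclei in the higher class and at most 25% of its UMIs from 1 nucleus. For ratios the limits were 50 UMIs and 10 nuclei, or 5 where fewer than 40 nuclei existed. Ribosomal protein, mitochondrially encoded, predicted (Gm and Rik) and sex-linked marker genes were left out. In lists, at most 4 genes with at least 20 UMIs and an interval excluding equality were named; genes given beyond these (Cck, Cps1, Atf3, Oprm1, Oprk1, Oprd1, Cnr1, Htr2c and subgroup levels) were chosen after their values were seen. Hox genes of groups 9 to 13, Hoxb1, Atoh1 and Sprr1a were not analysed here, and 1 further gene list is not reported here. Subgroups came from Leiden clustering (scanpy 1.11.5, igraph 0.11.9) of up to 1500 variable genes, 15 components, 10 neighbours and resolution 1. Doublets were called with Scrublet in scanpy. Positions are from GENCODE vM21, matched by identifier for 23853 genes.

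On simulated data, edgeR recovered 96% and 100% of genes changed by -2 and 2 on the log2 scale and 54% and 74% of those changed by -1 and 1, and called 0% of unchanged genes. Ratio intervals held the true value for 95.6% of 9619 unchanged genes. The ratio counts were drawn with the counting error that the intervals assume, and the edgeR counts with a common dispersion. Neither simulation held differences between nuclei or subgroups, so neither tested the intervals or calls against such differences. Alternatives were other transmitter, Hox and depth limits, scalings, filters, doublets or mitochondria-rich nuclei left out, and other clusterings.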

Additional observations from a re-analysis of the deposited data

Results flagged for a closer look

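For 10 named genes the SNI with brush over hot water bath log2 ratio had opposite signs in Hox4-8 negative and Hox4-8 positive nuclei, with both intervals excluding equality. The difference between the classes was not tested, since each treatment has 1 library, and the direction rests on counting error only. The monoamine genes Tph2 (-3.73 in negative and 4.50 in positive nuclei), Slc6a4 (-3.51 and 5.60), Ddc (-2.67 and 2.69) and Slc18a2 (-1.21 and 0.56) were lower in negative and higher in positive nuclei. Most of the Tph2 and Slc6a4 UMIs of the negative nuclei lay in 1 hot water bath nucleus. It also held 53 of the 102 Ddc UMIs and 36 of the 94 Slc18a2 UMIs of the hot water bath negative nuclei. The positive value of Slc6a4 is set by the added 0.5 UMI, since hot water bath positive nuclei held none. Lmx1b (-0.96 and 1.55), the substance P receptor gene Tacr1 (-2.11 and 1.03) and the peptide gene Cartpt (-2.00 and 2.25) went the same way. In the other direction, Nr4a2 (1.52 in negative and -1.76 in positive nuclei), Zfhx4 (0.83 and -0.51) and Zfhx3 (0.76 and -0.45) were higher in negative nuclei.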

How the results depend on the processing

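The share of nuclei that met the rule moved with its limits. With up to 1 Hox4-8 UMI allowed it was 22.6% of SNI with brush and 31.5% of hot water bath nuclei, with 5 transmitter UMIs 17.2% of hot water bath nuclei, and at 9000 UMIs per nucleus 10.6% of them. At that depth Slc17a6 was seen in 77.1% and 79.2%, and Slc17a8 in 1.04% of hot water bath nuclei.

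Calls between Hox4-8 negative and positive nuclei, 26 higher and 27 lower, changed with most settings. Without the block (library not in the model) edgeR called 0 and 0, with 70 genes at an unadjusted p under 0.05. Counts higher and lower were 4 and 5 with DESeq2, 78 and 85 with a filter of 1 UMI, 9 and 14 without doublets, 7 and 17 without nuclei over 0.5% mitochondrial UMIs, and 2 and 2 without liver-rich nuclei, a setting added after seeing the data. With DESeq2 size factors 13 were higher, and with positive nuclei of at least 3 Hox4-8 UMIs, also added, 40. Of the 26 higher genes, 13 were called again with size factors and 2 with DESeq2's test. For the 24 named genes, 92 of 204 recomputed tests kept the call and 112 lost it, 6 more gave no adjusted p, and none changed direction. Each library alone gave a fold with no test. The cause was not tested.

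Between the libraries, at least 2-fold higher and lower genes numbered 439 and 402 with size factors, 1122 higher with a filter of 20 UMIs, and 347 and 147 within subgroups 5 and 9 (5829 genes). Within these subgroups, added after seeing the data, Crhbp (2.93), Cartpt (3.85), Zfhx3 (-0.14) and Meis1 (-0.49) turned sign, as did the list medians of cerebellar and vestibular genes (-0.43) and neuropeptides (1.30), while the parabrachial median was 1.30. With genes of 5 or more UMIs the medians were 1.09 for parabrachial genes, 0.52 for neuropeptides and 0.21 for receptors, both of the last with turned sign. The cerebellar and vestibular median was 0.069 with size factors and 0.43 without mitochondria-rich nuclei. The other 42 recomputed list medians kept their direction. Clustering gave 9, 14, 10 and 11 subgroups at resolution 0.5, at 2.0, without centring, and without genes at least 2-fold apart.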
